A study of Mus musculus with 6 samples.

Results

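The R-spondin arm of Wnt signaling was described in whole intervertebral discs (IVDs) of mice at postnatal day 20 through 10 genes, which are the secreted R-spondins Rspo1, Rspo2, Rspo3 and Rspo4, their receptors Lgr4, Lgr5 and Lgr6, the ubiquitin ligases Znrf3 and Rnf43, and Axin2, a target gene of the pathway. They are 10 of the 43472 gene symbols in the count files. The genes were chosen by family name and selected on a value known beforehand, the lower Rspo4 count in mutant libraries, so the difference of Rspo4 between genotypes is given here as a description with no test. The other 9 genes were chosen as relatives of Rspo4, and the 8 of them that passed a filter on low counts were tested in the fit over all genes.

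RNA-seq was performed on 3 libraries of Col2Cre;Adgrg6 f/f mutants and 3 of Cre (-) littermate controls on a C57B6/J background, each a pool of discs from 2 to 3 mice. The controls are wild type by their genotype label, although their titles carry the name Col2Cre. In the mutants, exons of Adgrg6, an adhesion G protein-coupled receptor gene, were floxed and Cre was driven by Col2a1 regulatory sequence, which is active in cartilage and in the forming disc, so that deletion was neither timed nor limited to 1 tissue of the disc. Whole discs hold nucleus pulposus, annulus fibrosus, cartilaginous endplate and adjoining growth plate, and neither sex nor litter of the pools is given. In such bulk samples, fewer cells of a type and less RNA per cell cannot be told apart.

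R-spondins are secreted proteins that raise the response of a cell to Wnt ligands. They bind an Lgr receptor together with Znrf3 or Rnf43, membrane E3 ligases that otherwise mark Frizzled receptors for removal, and the ligases are cleared from the membrane with them. Wnt signal then stabilizes beta-catenin, which acts with TCF/LEF factors on target genes, and Axin2, Lgr5, Znrf3 and Rnf43 are themselves known targets that feed back on the pathway. In the skeleton this pathway is known for its part in bone formation and in the maturation of growth plate cartilage, and human RSPO4 for its part in the formation of nails.

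The 250 bases before the annotated start sites of Rspo4, Rspo1 and Axin2, the 3 members with the largest fitted differences among the 9 that passed the filter on low counts, are shown so that the sequence next to each start can be read beside its transcript level. They are RefSeq sequences on GRCm38.p6, all on the plus strand, at chr2:151842677-151842926 for Rspo4, chr4:124986180-124986429 for Rspo1 and chr11:108920099-108920348 for Axin2. Capitals mark TGACG, which is one arm of the site bound by CREB family factors, and CTTTGAT or CTTTGTT, which are forms of the site bound by TCF/LEF factors, on either strand.
Rspo4: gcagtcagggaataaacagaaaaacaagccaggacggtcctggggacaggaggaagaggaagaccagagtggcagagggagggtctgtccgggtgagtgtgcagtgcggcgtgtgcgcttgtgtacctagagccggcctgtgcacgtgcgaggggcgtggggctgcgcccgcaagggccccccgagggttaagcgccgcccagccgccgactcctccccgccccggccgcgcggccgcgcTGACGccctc
Rspo1: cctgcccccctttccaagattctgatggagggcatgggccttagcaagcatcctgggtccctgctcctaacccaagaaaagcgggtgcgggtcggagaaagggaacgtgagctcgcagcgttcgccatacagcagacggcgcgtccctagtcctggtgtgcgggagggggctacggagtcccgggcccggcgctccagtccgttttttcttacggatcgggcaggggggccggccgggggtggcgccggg
Axin2: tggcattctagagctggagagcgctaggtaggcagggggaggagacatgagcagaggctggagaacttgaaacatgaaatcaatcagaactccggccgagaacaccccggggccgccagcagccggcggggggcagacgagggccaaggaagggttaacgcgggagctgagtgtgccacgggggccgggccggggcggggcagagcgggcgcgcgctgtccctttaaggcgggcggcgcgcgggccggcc

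Such windows were at hand for 6 of the 10 genes (Rspo1, Rspo4, Lgr4, Lgr6, Rnf43 and Axin2), with 7 windows in all since Rnf43 has more than 1 start site. The TCF/LEF letters were found in 0 of the 7 windows, and in 8.06% of the 32851 windows of all genes. TGACG was found in 1 of the 7, that of Rspo4, where it begins 10 bases before the start site on the plus strand, and in 17.8% of all windows. The Rspo4 and Axin2 windows were rich in G and C, at 69.6% and 69.2%, compared with a median of 52.4% over all windows. These matches describe letters only and say nothing about binding.

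Between 9061491 and 12017008 reads were counted on genes in a library, and 16152 genes passed the filter on low counts. Levels are given as CPM, the read count of a gene scaled to a common library total, with library sizes scaled by TMM, and differences are log2 fold changes of mutant over control from the quasi-likelihood test of edgeR, with Benjamini-Hochberg adjustment over all genes tested. All 6 chondrocyte markers had counts in every library, and 7 of 8 nucleus pulposus markers had, with the notochord gene Noto at 0 in every control library. Adgrg6, listed as Gpr126, was at 108 ± 14.9 CPM in controls and 122 ± 16.1 CPM in mutants (SD, n = 3; adjusted p = 0.849 from edgeR), and these counts cover the whole gene, so they do not check the deletion. Skeletal muscle markers summed to 3601 CPM in control replicate 1 and to between 64.6 and 148 CPM in the other 5 libraries. Over all genes, 7.21% passed an unadjusted p of 0.05 (2.89% higher and 4.32% lower in mutant IVDs) and 0.00619%, which is 1 gene, had an adjusted p under 0.05. The mutant libraries all lay above the controls for 5.53% of genes and all below them for 5.89%.

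Rspo4 was the member with the clearest separation between genotypes. The gene lies on chromosome 2 from 151842927 to 151874668 (GENCODE M21 on GRCm38), on the plus strand. It was measured at 26.4, 32.0 and 20.3 CPM in control replicates 1 to 3 and at 9.09, 8.79 and 11.2 CPM in mutant replicates 1 to 3. Every mutant library was below every control library, and the mutant libraries lay close together. Controls averaged 26.2 ± 5.85 CPM and mutants 9.71 ± 1.33 CPM (SD, n = 3 each), a ratio of 0.371 of mutant over control. The fitted log2 fold change was -1.43 (standard error 0.23), and 3.20% of the genes tested had a fitted value as low or lower. With any 1 library left out it stayed between -1.58 and -1.27. These values rest on 80 to 289 counts per library. An antisense transcript, Rspo4os, lies inside Rspo4 but shares 0 exon bases with it, and it had 14 counts over all libraries compared with 1091 for Rspo4.

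Rspo3, on chromosome 10 from 29452416 to 29535867, was the other abundant R-spondin. It was at 35.6, 24.9 and 30.4 CPM in control replicates 1 to 3 and at 20.5, 25.5 and 22.4 CPM in mutant replicates 1 to 3. The groups overlapped, because mutant replicate 2 was above control replicate 2. Its log2 fold change was -0.41 (standard error 0.19, 95% interval -0.84 to 0.01, edgeR unadjusted p = 0.0543, adjusted p = 0.691). The unadjusted p was 0.0261 without control replicate 2 and 0.0477 without mutant replicate 2, but between 0.113 and 0.231 without each of the other 4 libraries, with the log2 fold change at -0.26 without control replicate 1. Of the exon bases of Rspo3, 404 (13.1%) are shared with an antisense gene, Gm48159, which was not analysed here.

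Rspo1 and Rspo2 were scarce. Rspo1, on chromosome 4 from 124986430 to 125009099, had 7, 13 and 19 counts in control replicates 1 to 3, which are 0.748, 1.44 and 1.47 CPM. It had 31, 47 and 14 counts in mutant replicates 1 to 3, which are 3.52, 3.83 and 1.48 CPM. All mutant libraries were above all controls, which held for 1 of the 8 members tested other than Rspo4 and for 5.53% of all genes, but mutant replicate 3 and control replicate 3 were nearly equal. The log2 fold change of 1.26 (standard error 0.59, 95% interval -0.07 to 2.58) had an edgeR unadjusted p of 0.0606 and an adjusted p of 0.697. Its unadjusted p was 0.0383 without mutant replicate 3 and between 0.0700 and 0.209 without each of the other 5 libraries. Rspo2 (chromosome 15, 43020794 to 43170826) averaged 4.27 ± 1.58 CPM in controls and 4.06 ± 1.09 CPM in mutants, with overlapping groups and a log2 fold change of -0.09 (95% interval -1.06 to 0.89, adjusted p = 0.973 from edgeR). With 25 to 75 counts per library, this interval bounds the difference of Rspo2 only loosely in either direction.

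**Figure D1:**
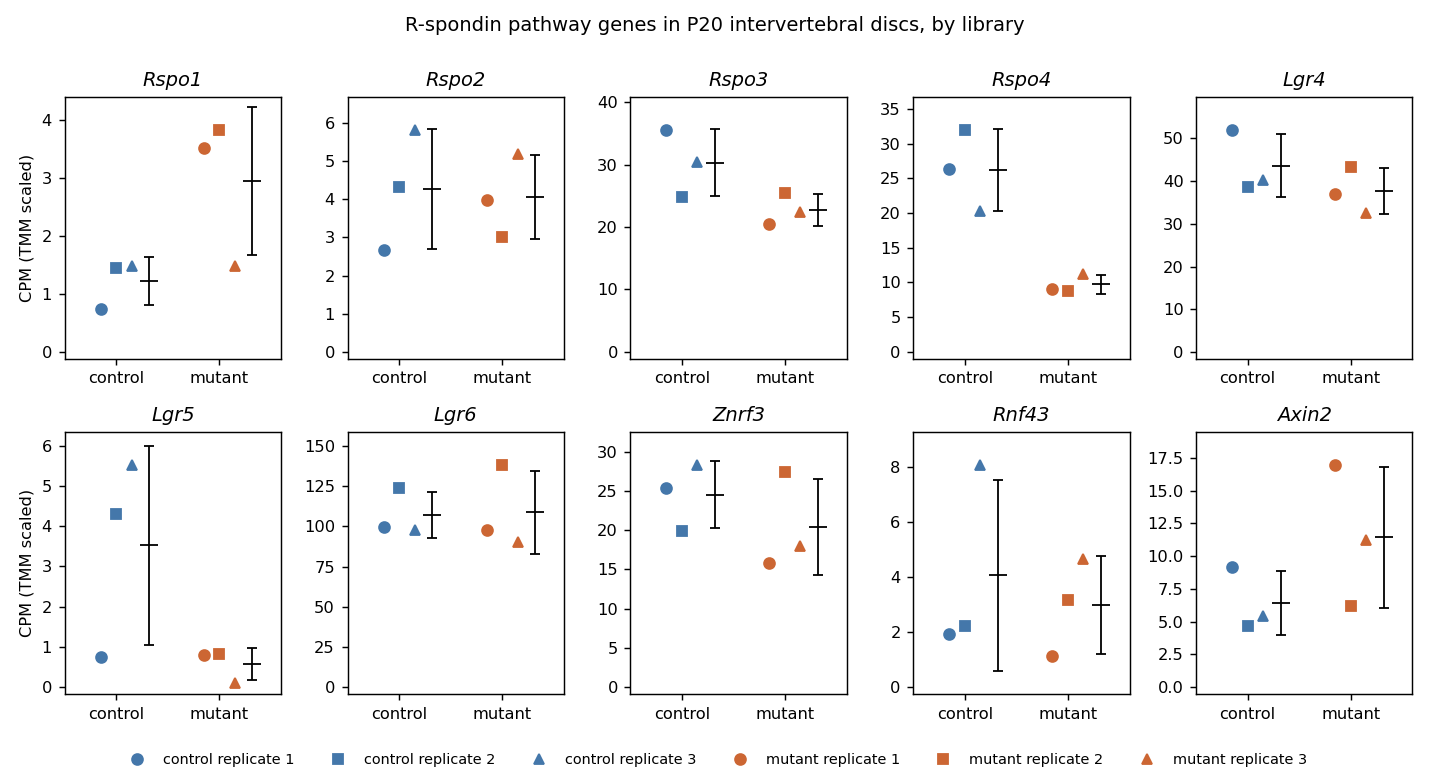
Level of each of the 10 genes in CPM (vertical axes, scaled per gene and starting near 0) in the 3 control and 3 mutant libraries, with the mean and SD of each group as a bar. The mutant points of Rspo4, between 8.79 and 11.2 CPM, lie below all control points, and those of Lgr6 overlap the controls.

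Levels can be compared between genes only per length, and CPM per kb of annotated exon was used for this. In control IVDs Lgr6 came first at 15.6 ± 2.11 CPM per kb (SD, n = 3), above the range of every other member. Rspo4 followed at 11.1 ± 2.47, Rspo3 at 9.80 ± 1.73 and Lgr4 at 7.42 ± 1.24 CPM per kb, and the ranges of neighbours in this order overlapped. Znrf3, at 3.11 ± 0.54 CPM per kb, was below the range of Lgr4 and above that of Axin2, at 1.17 ± 0.44. The ranges of Axin2, Rspo2 (0.835), Rspo1 (0.630), Rnf43 (0.620) and Lgr5 (0.343 CPM per kb) overlapped from each to the next. In mutant IVDs Rspo4 stood at 4.09 ± 0.56 CPM per kb, below the range of Lgr4 (5.55 to 7.38) and above that of Znrf3 (2.00 to 3.47). Among the 4 R-spondins, Rspo4 thus shared the first place with Rspo3 in controls, and it was above Rspo3 only in control replicate 2. In mutants Rspo4 was below Rspo3, whose mutant libraries lay between 6.62 and 8.25 CPM per kb.

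Summed per kb, the 4 R-spondins reached 23.5, 23.1 and 20.3 CPM per kb in control replicates 1 to 3 and 13.05, 14.5 and 13.8 CPM per kb in mutant replicates 1 to 3. Rspo4 made up 47.3%, 58.3% and 42.1% of that sum in the controls and 29.4%, 25.5% and 34.4% in the mutants. Without Rspo4, the sum of the other R-spondins was 11.3 ± 1.45 CPM per kb in control and 9.68 ± 0.98 CPM per kb in mutant IVDs, and the groups overlapped. Rspo1 made up 2.87% ± 1.10 of R-spondin transcripts in control and 11.03% ± 4.74 in mutant IVDs. Because Rspo4 is part of the sum, the shares of the other R-spondins rise as it falls. The Rspo1 share was 5.57% in mutant replicate 3 and 3.75% in control replicate 3, on 14 and 19 counts. The ratio of Rspo4 to Rspo3 counts within a library, which needs no scaling between libraries, was 0.742, 1.28 and 0.666 in control replicates 1 to 3 and 0.444, 0.345 and 0.502 in mutant replicates 1 to 3. Every mutant library was again below every control library, and since Rspo4 was chosen for its difference this is a description.

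**Figure D2:**
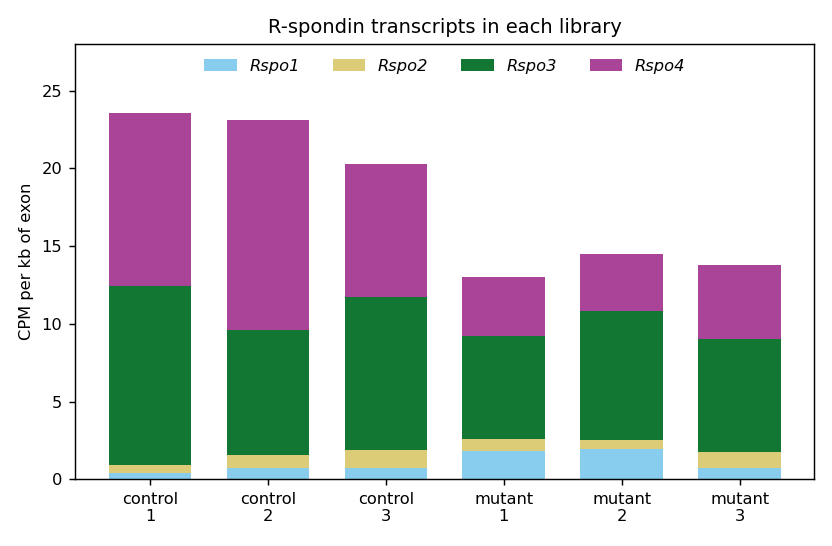
Stacked bars of the 4 R-spondins in each library, in CPM per kb of exon (vertical axis from 0). The Rspo4 part shrinks from 42.1% to 58.3% of a control bar to 25.5% to 34.4% of a mutant bar. Rspo3 is the largest part in the mutant libraries and also in control replicates 1 and 3, and Rspo4 in control replicate 2.

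Lgr6 was the main R-spondin receptor transcript of these discs. It lies on chromosome 1 from 134983301 to 135105276 and was at 99.8, 124 and 97.8 CPM in control replicates 1 to 3 and at 97.9, 138 and 90.1 CPM in mutant replicates 1 to 3. The log2 fold change was 0.02 (standard error 0.21, 95% interval -0.44 to 0.48, adjusted p = 0.991 from edgeR), and its sign changed with the library left out. Lgr6 made up 66.7% ± 5.10 of Lgr transcripts per kb in control and 70.8% ± 1.96 in mutant IVDs. Lgr4, the broadly expressed receptor of the family, lies on chromosome 2 from 109917647 to 110014257 and supplied most of the rest. Its level was 43.7 ± 7.29 CPM in control and 37.7 ± 5.40 CPM in mutant IVDs, with overlapping groups and a log2 fold change of -0.21 (95% interval -0.62 to 0.19, adjusted p = 0.815 from edgeR). With 1 library left out this ranged from -0.31, without mutant replicate 2, to -0.05, without control replicate 1.

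Lgr5, known as a marker of stem cells in the gut, had the lowest mean CPM per kb of the members in both groups. It was the only member that did not pass the filter on low counts. It lies on chromosome 10 from 115450311 to 115587780. It had 7, 39 and 71 counts in control replicates 1 to 3 and 7, 10 and 1 counts in mutant replicates 1 to 3. Control replicates 2 and 3 stood apart from the other 4 libraries, among which control replicate 1, at 0.748 CPM, was below mutant replicates 1 and 2, at 0.795 and 0.814 CPM. Fitted without the filter, the log2 fold change was -2.57 (standard error 0.78, edgeR unadjusted p = 0.00171, adjusted p = 0.114), and with DESeq2 it was -2.60 (unadjusted p = 0.0028, adjusted p = 0.232).

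The same control libraries had more genes detected. Control replicates 2 and 3 had counts on 22971 and 23133 genes and the other libraries on 20421 to 21244. Olfactory and vomeronasal receptor genes, 1419 genes whose proteins serve the nose and which were taken after the data were seen as genes that discs should not express, had counts for 9.02% and 10.9% of genes in control replicates 2 and 3 and for 3.24% to 5.78% in the other libraries. Over their exons this was 0.0125 and 0.0237 CPM per kb, compared with 0.00297 to 0.00556 CPM per kb in the other libraries. Lgr5 itself was at 0.420 and 0.537 CPM per kb in control replicates 2 and 3 and at 0.0103 to 0.0793 CPM per kb in the rest. The part of this background in the Lgr5 result was not tested.

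**Figure D3:**
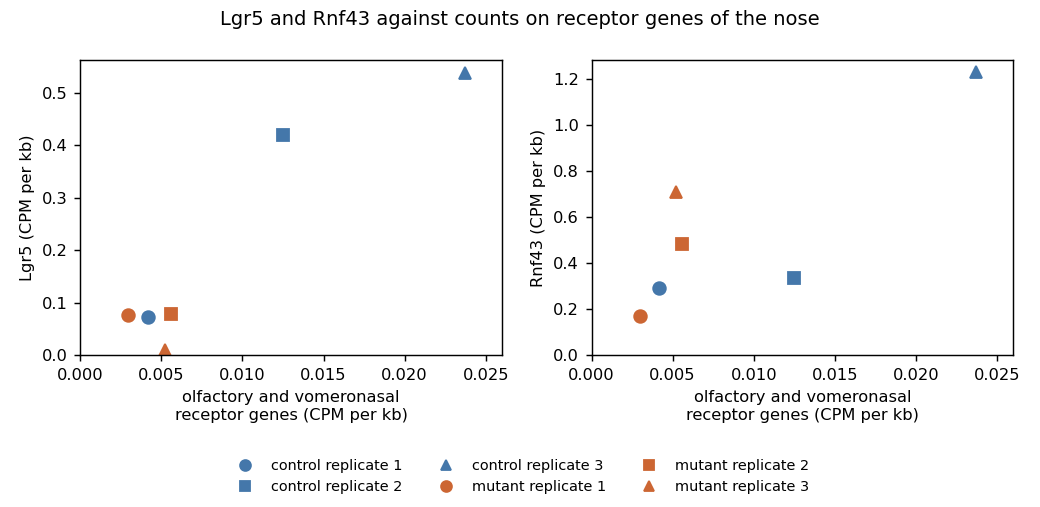
Lgr5 (left) and Rnf43 (right) in CPM per kb of exon on the vertical axes against the mean level of 1419 olfactory and vomeronasal receptor genes in CPM per kb on the horizontal axes, 1 point per library. Control replicates 2 and 3 lie to the right of the other libraries, and Lgr5 is highest in the same libraries.

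Of the ligases, Znrf3 was the more abundant. It lies on chromosome 11 from 5276324 to 5444847 and was at 25.4, 19.9 and 28.3 CPM in control replicates 1 to 3 and at 15.8, 27.4 and 18.0 CPM in mutant replicates 1 to 3. The groups overlapped because of mutant replicate 2, and the log2 fold change was -0.27 (standard error 0.24, 95% interval -0.80 to 0.27, adjusted p = 0.824 from edgeR). With 1 library left out it ranged from -0.53 (unadjusted p = 0.0435, edgeR), without mutant replicate 2, to -0.08 (0.763), without mutant replicate 1, and it was -0.14 without control replicate 3. Rnf43, on chromosome 11 from 87662722 to 87735539, had 18, 20 and 104 counts in control replicates 1 to 3 and 10, 39 and 44 counts in mutant replicates 1 to 3. Control replicate 3 was far above the other controls, at 8.07 CPM compared with 1.92 and 2.21 CPM. The log2 fold change was -0.46 (standard error 0.67, 95% interval -1.96 to 1.04, adjusted p = 0.902 from edgeR), and it was 0.54 without control replicate 3. Znrf3 supplied 84.8% ± 9.12 of the transcripts of the ligases per kb in control and 85.3% ± 8.16 in mutant IVDs.

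Axin2 encodes a scaffold of the complex that degrades beta-catenin and is widely read as a reporter of Wnt signal. It lies on chromosome 11 from 108920349 to 108950783 and was at 9.18, 4.64 and 5.43 CPM in control replicates 1 to 3 and at 16.9, 6.19 and 11.2 CPM in mutant replicates 1 to 3. Mutant replicates 1 and 3 were above all controls, and mutant replicate 2 was below control replicate 1. The log2 fold change was 0.83 (standard error 0.40, 95% interval -0.07 to 1.73, edgeR unadjusted p = 0.0681, adjusted p = 0.705). With 1 library left out the unadjusted p ranged from 0.0123, without mutant replicate 2, to 0.296, without mutant replicate 1, and it was 0.0185 without control replicate 1. The log2 fold change ranged from 0.47, without mutant replicate 1, to 1.19, without control replicate 1. The unadjusted p was 0.0299 with the replicate number as a block, and without the filter on low counts 0.0198, while the adjusted p stayed above 0.05 in each of these fits. Markers of neurons and glia summed to 200, 1628 and 495 CPM in control replicates 1 to 3 and to 3523, 2468 and 832 CPM in mutant replicates 1 to 3, with 3 of the 6 higher on average in mutants. The libraries were ordered differently by this sum and by Axin2, and mutant replicate 1 was the highest for both. The part of these cells in the Axin2 level was not tested. Of the exon bases of Axin2, 209 (3.80%) are shared with an antisense gene, Gm11670, which had 30 counts over all libraries compared with 529 for Axin2.

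Among the 8 members other than Rspo4 that were tested, 0 passed an unadjusted p of 0.05 with edgeR and 0 had an adjusted p under 0.05, compared with 7.21% and 0.00619% of all genes. With DESeq2, 0 of the 8 passed an unadjusted p of 0.05, beside 6.07% of all genes in that fit. Leaving out mutant replicate 2 gave 3 of the 8, namely Rspo3, Znrf3 and Axin2, while the share of all genes was then 9.76%, and 0 had an adjusted p under 0.05. Lgr5 is not in these counts, since it entered a fit with the filter only when a library was left out, and then through the counts of control replicates 2 and 3.

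**Figure D4:**
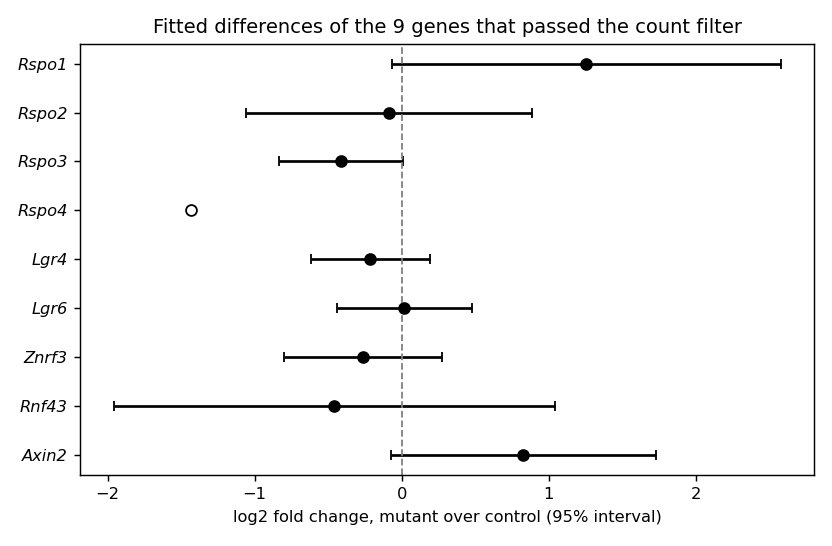
Fitted log2 fold change of mutant over control (horizontal axis) for the 9 members that passed the filter on low counts, with 95% intervals as bars. Rspo4, at -1.43, is drawn as an open point with no interval because it was chosen for its difference, and the intervals of the other 8 genes include 0.

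Rspo4 was also set beside markers of hypertrophic chondrocytes, the maturing cells of growth plate and endplate cartilage. All 5 markers had a lower mean in mutant IVDs. For Ihh, the hedgehog ligand of prehypertrophic chondrocytes, and Panx3, a channel gene of the same cells, every mutant library was below every control library, which held for 5.89% of all genes. Ihh was at 188, 188 and 112 CPM in control replicates 1 to 3 and at 63.2, 47.6 and 63.5 CPM in mutant replicates 1 to 3 (log2 fold change -1.49, standard error 0.24, adjusted p = 0.287 from edgeR). Panx3 was at 87.3 ± 21.1 CPM in control and 36.6 ± 8.92 CPM in mutant IVDs (log2 fold change -1.25, adjusted p = 0.411 from edgeR). The paper reports lower Panx3 in these same data, so its difference was known beforehand and is a description. For Col10a1, Alpl and Mmp13 the groups overlapped, and so did the summed level of the list, at 844 to 1622 CPM in control and 641 to 964 CPM in mutant libraries. The part of these cells in the Rspo4 result was not tested.

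**Figure D5:**
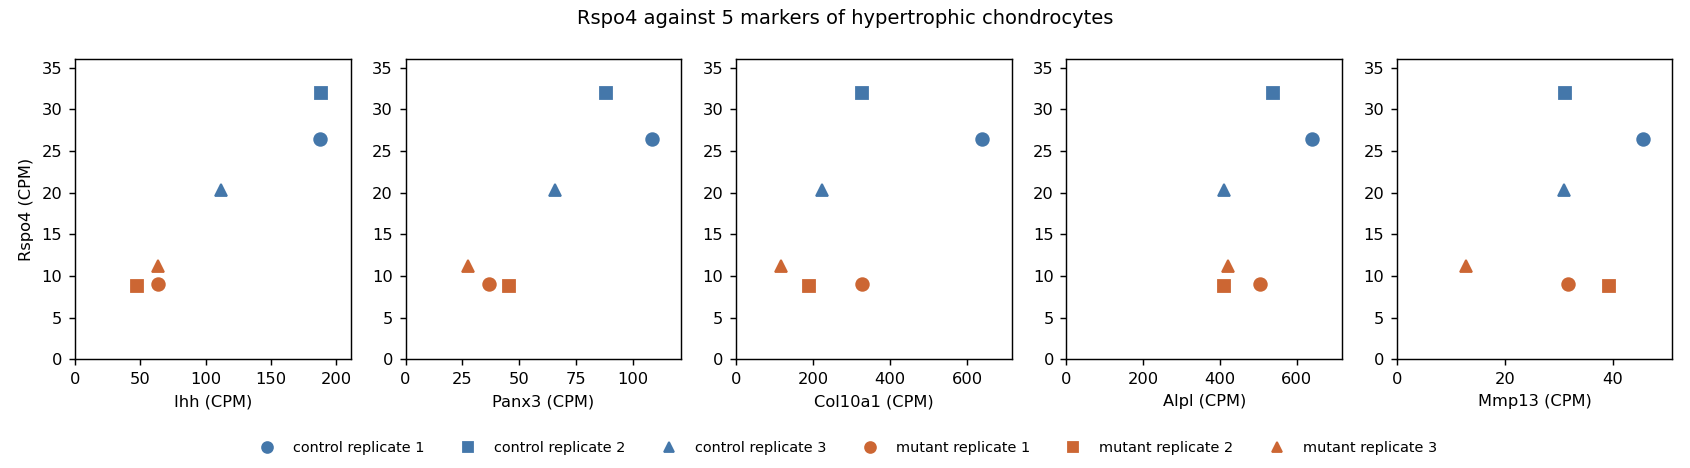
Rspo4 in CPM (vertical axis) against Ihh, Panx3, Col10a1, Alpl and Mmp13 in CPM (horizontal axes), 1 point per library. Mutant and control points separate on both axes for Ihh and Panx3 and only on the Rspo4 axis for the other 3 genes.

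The genes whose pattern over the 6 libraries was most like that of Rspo4 were found by the Pearson correlation of log2 CPM, among 15973 genes with a mean of at least 1 CPM. They were Fxyd2 (r = 0.992), a regulator of the sodium pump, Prss50 (0.987), a serine protease gene, Ccdc80 (0.986), 3010001F23Rik (0.981), 1700010K24Rik (0.980), Ihh (0.980), Gemin5 (0.975) and Alpk2 (0.974), and 96 genes had r above 0.9. For Axin2 they were Rnf123 (0.996), Hspa14 (0.988), Notch1 (0.987), Sec23b (0.983), Kremen1 (0.982), which encodes a Dkk receptor, Napa (0.982), Card10 (0.981) and C1s1 (0.980), and 210 genes had r above 0.9. With 6 libraries in only 2 genotypes, such values are a description.

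The rest of the Wnt pathway was read from 5 lists of 83 genes, of which 70 were tested. In all, 4 passed an unadjusted p of 0.05 and were higher and 2 were lower, which is 8.57% of those tested beside 7.21% of all genes, and 0 had an adjusted p under 0.05 with edgeR. The median log2 fold change of the 70 genes was 0.06, compared with -0.01 over all genes. These lists were drawn up with earlier results of these data known, that of Dkk3 among them.

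Among Wnt ligands and the genes for their secretion, 12 of 21 were tested, with a median log2 fold change of -0.15. The median was -0.37 over the 21 genes fitted without the filter on low counts, by edgeR or DESeq2, and -0.16 to -0.31 over the 12 to 14 genes fitted with 1 library left out. Wnt4, a ligand active in cartilage, was the only one with an unadjusted p under 0.05, which is 8.33% of those tested beside 7.21% of all genes. It was at 37.0 ± 0.93 CPM in controls and 28.3 ± 0.56 CPM in mutants (log2 fold change -0.39, edgeR unadjusted p = 0.0254, adjusted p = 0.676). Its mutant libraries were all below its controls, which held for 1 of the 12 genes and for 5.89% of all genes. The edgeR unadjusted p of Wnt4 was between 0.0480 and 0.0794 with 1 library left out. It was 0.0808 with DESeq2, 0.0711 without the filter on low counts and 0.0626 with the replicate number as a block. Wnt5b, the ligand with the highest CPM (not scaled by length), was at 95.6 ± 17.2 CPM in controls and 79.4 ± 2.21 CPM in mutants (adjusted p = 0.779 from edgeR), and Wls, which carries Wnt proteins to the cell surface, at 46.4 ± 6.61 and 45.4 ± 9.70 CPM in the same order.

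All 15 receptor genes were tested and 0 passed an unadjusted p of 0.05 with edgeR. DESeq2 gave 1, beside 6.07% of all genes, and leaving out mutant replicate 2 gave 2, beside 9.76%, all of them higher. The median was 0.05. Fzd9 and the co-receptor gene Lrp5 had the highest CPM, not scaled by length. Fzd9 was at 133 ± 47.1 CPM in controls and 117 ± 30.7 CPM in mutants. Lrp5 was at 200 and 220 CPM in mutant replicates 1 and 3 but at 107 CPM in mutant replicate 2, with controls between 119 and 135 CPM (log2 fold change 0.49, edgeR unadjusted p = 0.0843, adjusted p = 0.725). It was 0.76 without mutant replicate 2 (edgeR unadjusted p = 0.00286) and 0.30 without mutant replicate 3 (0.308). Mutant replicate 2 was thus the lowest mutant library for Axin2 and for Lrp5.

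Of the 19 intracellular transducers, 0 passed an unadjusted p of 0.05 with edgeR or DESeq2, and the median was 0.07. Without the filter on low counts 2 were higher at that threshold, beside 8.62% of all genes called in either direction, and without mutant replicate 2, 3 were higher and 1 was lower, beside 9.76%. Ctnnb1, the gene of beta-catenin, was at 312 ± 49.3 CPM in controls and 389 ± 101 CPM in mutants (log2 fold change 0.31, adjusted p = 0.790 from edgeR), and its log2 fold change was 0.12 without mutant replicate 1 and 0.46 without control replicate 1. Dvl1, which relays the signal from Frizzled, was at 121 ± 23.2 and 149 ± 44.2 CPM in the same order.

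Among 15 further target genes, 13 were tested, with a median of 0.27, and 8 of the 13 had a fitted value above 0, as had 48.4% of all genes. The median was 0.08 without mutant replicate 1 and 0.14 without control replicate 3. Bambi, a target that encodes a decoy receptor for TGF-beta family ligands, was at 19.3 ± 1.90 CPM in controls and 11.4 ± 2.16 CPM in mutants (log2 fold change -0.76, standard error 0.22, edgeR unadjusted p = 0.00581, adjusted p = 0.676). Bambi was the only target with an unadjusted p under 0.05, which is 7.69% of the 13 tested beside 7.21% of all genes. Every mutant library was below every control library, which held for 1 of the 13 and for 5.89% of all genes. The edgeR unadjusted p of Bambi was at most 0.028 whichever library was left out. Notum, a secreted enzyme that inactivates Wnt proteins, had the highest CPM of the list, not scaled by length, at 151 ± 37.8 CPM in controls and 204 ± 71.4 CPM in mutants (log2 fold change 0.43, adjusted p = 0.780 from edgeR). Its log2 fold change was 0.69 without mutant replicate 2, with an unadjusted p of 0.0196, and 0.22 without mutant replicate 1. Ccnd1, which encodes cyclin D1, averaged 42.7 ± 6.96 CPM in controls and 51.7 ± 13.5 CPM in mutants.

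Of 13 Wnt antagonists 11 were tested. Dkk3, Sfrp1, Sfrp2 and Wif1 were higher in mutant IVDs at an unadjusted p under 0.05, beside 2.89% of all genes, while 5 of the 11 had a negative fold change and the median was 0.001 (-0.16 over the 13 genes fitted without the filter on low counts, -0.11 when control replicate 1 was left out and 0.25 when control replicate 3 was). The adjusted p values of these 4 genes from edgeR were 0.676 to 0.691, so none passed the correction. Sfrp1, a secreted Frizzled-like decoy, was at 4.29 ± 0.67 CPM in controls and 9.63 ± 2.96 CPM in mutants (log2 fold change 1.16, standard error 0.34, edgeR unadjusted p = 0.00674). Dkk3 was at 48.7, 36.1 and 29.0 CPM in control replicates 1 to 3 and at 48.9, 70.8 and 65.6 CPM in mutant replicates 1 to 3 (log2 fold change 0.70, edgeR unadjusted p = 0.0101). For Sfrp1 and Dkk3 the unadjusted p stayed under 0.05 whichever library was left out. The paper reports higher Dkk3 in these same data, and this was known when the lists were drawn up. The values of Dkk3, and its place among the 4 genes, are therefore a description. Sfrp2 was at 2.66 ± 0.10 CPM in controls and 6.17 ± 3.75 CPM in mutants (log2 fold change 1.20, edgeR unadjusted p = 0.0305), but mutant replicate 1 alone reached 10.5 CPM and without it the log2 fold change was 0.63 (unadjusted p = 0.234). With the replicate number as a block the unadjusted p was 0.0598. Without control replicate 2 and without control replicate 3 the unadjusted p of Sfrp2 was 0.0602 and 0.0557. Wif1, which binds Wnt proteins outside the cell, was at 340 ± 97.6 CPM in controls and 493 ± 51.5 CPM in mutants (log2 fold change 0.53, edgeR unadjusted p = 0.0461), with control replicate 2 inside the mutant range. Its unadjusted p was 0.0509 to 0.127 without each library other than control replicate 2. Sfrp5, named with Wif1 for its high CPM, was at 419 ± 218 CPM in controls and 299 ± 110 CPM in mutants (log2 fold change -0.49, adjusted p = 0.814 from edgeR). It was -0.83 without control replicate 1, with an unadjusted p of 0.0218, and -0.14 without control replicate 2. Without mutant replicate 1, 2 of the 11 antagonists were called, beside 4.76% of all genes. Markers of tendon and outer annulus summed to 6716 to 16852 CPM in control and 15280 to 25210 CPM in mutant libraries. On average 5 of these 6 were higher in mutants. So were 5 of 6 osteoblast, 5 of 5 endothelial, 5 of 5 red blood cell precursor and 6 of 6 neutrophil precursor markers. Higher too were 2 of 6 chondrocyte, 5 of 8 nucleus pulposus, 3 of 6 neuron and glia, 2 of 4 macrophage and 2 of 4 adipocyte markers. By the same measure 0 of 5 hypertrophic chondrocyte and 0 of 6 skeletal muscle markers were higher. The skeletal muscle means rest on control replicate 1, with a sum of 3601 CPM. That sum was 94.7 and 64.6 CPM in control replicates 2 and 3, below the mutant libraries at 135 to 148 CPM. The part of these cells in the antagonist levels was not tested.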

How the data were processed

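The authors deposited raw counts per gene symbol for each of the 6 libraries, made from poly(A) RNA, and pools were not combined further. The submitters' processing notes name STAR 2.5.3a, HTSeq and DESeq2 on mm10 (GRCm38), whereas the paper's methods name Cutadapt and HISAT2. The strand setting is not given in the sources used here. The authors' table of their own comparison, with 6 columns of normalized counts, fold changes and p-values, was not used. Closing lines without a gene were left out, and 40.4% to 44.2% of reads were counted on genes.

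Counts were tested with edgeR 4.0.16 in R 4.3.3 (TMM, filterByExpr with its count minimum of 10, quasi-likelihood test, Benjamini-Hochberg adjustment over 16152 genes). The standard error is the size of the log2 fold change over the square root of F. P-values measure the spread between pools. The test was checked on simulated data. Exon lengths and coordinates are from GENCODE M21. The members, lists and tests were chosen with earlier results of these data known. Genes named are all members, the list genes past an unadjusted p of 0.05, the 2 with the highest CPM in each list, the 8 most like Rspo4 or Axin2, and cell type markers. Alternatives were RLE size factors, no filter, DESeq2 1.42.0, a replicate block and leaving out each library. Proteins were not analysed here. Standard errors and intervals of the log2 fold changes come from the edgeR fits and likewise measure the spread between pools.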

Additional observations from a re-analysis of the deposited data

How the results depend on the processing

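The log2 fold change of Rspo4 stayed within the spread between replicates under all 10 alternatives (-1.58 to -1.27 with a library left out). Since Rspo4 was chosen for its difference in these libraries, this too is a description. Of the 8 members other than Rspo4 in the main test, 0 had an unadjusted p under 0.05 with TMM or RLE (7.21% and 7.20% of all genes), 1 without the filter on low counts (8.62%), 0 with DESeq2 (6.07%), 1 with the replicate block (6.20%) and 0 to 3 with a library left out (3.77% to 14.1%). With Lgr5 counted where it was fitted, these became 2 without the filter, 1 with DESeq2 and 0 to 4 with a library left out. Lgr5 was not fitted with the block. With a library left out, Lgr5 passed the filter only through the counts of control replicates 2 and 3. Under each alternative 0 of the members fitted had an adjusted p under 0.05. Over the Wnt pathway lists the count of 6 became 9 without the filter (8.62% of all genes) and 4 with the replicate block (6.20%). With a library left out it ranged from 4, without mutant replicate 1 or 3 (4.76% and 5.10%), to 12, without mutant replicate 2 (9.76%). Only the last moved it by more than 1.5 times. Of all genes, 1 passed an adjusted p of 0.05, 245 without the filter, 52 with DESeq2, 0 with the replicate block and 0 to 31 with a library left out (31 without control replicate 1). At an unadjusted p the count of 1164 became 2276 without the filter and ranged from 618 to 2427 with a library left out. Causes of these shifts were not tested, except that without the filter more genes are tested.

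The sign of Lgr6 changed with the replicate block (log2 fold change -0.000139), and with a library left out it ranged from -0.18 to 0.14. With a library left out, Rspo2 ranged from -0.31 to 0.22, Rnf43 from -0.90 to 0.54, Wls from -0.21 to 0.077 and Fzd9 from -0.35 to 0.12. Replicate numbers are shared between genotypes, but deviations from the group means of same-numbered libraries correlated at 0.16, -0.13 and 0.10, so the numbers were not taken as pairs. Counts of 1 to 104 per library limit Rspo1, Rspo2, Lgr5 and Rnf43.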
